A study of Mus musculus with 13 samples.

Results

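The heat shock and DNAJ chaperone genes described here were the symbols of the deposited table that begin with *Hspa*, *Hspb*, *Hspd*, *Hspe*, *Hsph* or *Dnaj*, plus *Bag1* to *Bag6*, without the endoplasmic reticulum genes *Hspa5* and *Dnajb9*. Of 35967 symbols in the table, 91 met this description, and 73 of them reached 1 TPM in 4 or more of the libraries and were tested among 14322 genes. Glomerular RNA came from wildtype Balb/c mice that received, by intraperitoneal injection, 2.0 mg of rabbit IgG. Control mice (n = 5) were given preimmune IgG, with days 1 and 5 combined into 1 group. Mice with THSD7A-associated membranous nephropathy (MN) were given anti-THSD7A IgG, and their glomeruli were taken on day 1 (n = 4) or on day 5 (n = 4). THSD7A is a podocyte membrane protein and a target antigen of MN, so the antibody passively transfers a disease that the host did not make itself. The methods name adult males for the MN model. The day of each control mouse was not given. The libraries of a group carry separate replicate numbers, and the study gives its n for the sequencing as independent animals. Glomeruli were released from bead-perfused kidneys by warm collagenase digestion. A mechanical release is described as an alternative, for co-immunoprecipitation.

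Heat shock proteins of the HSP70 class bind unfolded stretches of other proteins in cycles of ATP hydrolysis. J-domain proteins, encoded by the *Dnaj* genes, deliver clients and stimulate the ATPase, and BAG and HSP110 proteins release the nucleotide and with it the client. Small heat shock proteins hold unfolding proteins without ATP, and the mitochondrial chaperonin encoded by *Hspd1* and *Hspe1* folds imported proteins. A few of these genes are strongly induced by the transcription factor HSF1 when proteins unfold, for instance on heating, while most are expressed at a steady level. In podocytes, HSP27, the product of *Hspb1*, is known as a regulator of actin filaments.

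TPM are transcript abundances scaled by length and by library, so they allow levels of different genes to be set side by side. They carry no read depth, and no counting error could be given. The deposited TPM summed to between 989774 and 996064 per library, and Spearman correlations between libraries over the tested genes lay between 0.971 and 0.988. Podocyte genes marked every library as glomerular, with *Podxl* (podocalyxin) at 2508 TPM or more. Proximal tubule genes were present too. The summed TPM of 8 proximal tubule markers ran from 2216 to 3715 in control libraries 1 to 4, was 8008 in control library 5, ran from 3825 to 7061 at day 1 and from 2824 to 3420 at day 5. Most of this sum was *Kap*, at 1945 to 7313 TPM over all libraries, while no other of these markers passed 388 TPM. Of 8 leukocyte markers, 3 (*Adgre1*, *Cd3e* and *Cd79a*) were too low to be tested. In bulk RNA, a smaller share of a cell type and less RNA per cell cannot be told apart.

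As a set, the chaperone genes moved little with anti-THSD7A IgG. Fold changes below are limma log2 differences of scaled TPM plus 0.5, and a gene was called at an adjusted p-value under 0.05 with an absolute log2 fold change above 0.5. At day 1, 0 of the 73 members were called, where 0.0908% of all tested genes were, and 0 passed the adjusted p-value alone, where 0.133% of all genes did (limma, with 10 members at an unadjusted p under 0.05). The smallest adjusted p at day 1 was 0.178, for *Hspb2*. At day 5, 1 member was called, *Hspb2*, against 3.21% of all tested genes, and 5 passed the adjusted p-value alone, against 6.12%. Between the days, 0 members were called, against 1.81% of genes, and 1 passed the adjusted p-value alone, *Dnajc9*, against 2.38% (limma, with 9 members at an unadjusted p under 0.05). Both MN groups are set against the same control libraries.

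The medians of the members were small. The median log2 fold change was -0.03 at day 1, with 27 positive and 46 negative, and -0.07 at day 5, with 22 positive and 51 negative, beside medians for all tested genes of -0.0029 at day 1 and -0.0032 at day 5. The day 1 median turned to 0.003 without day 1 library 1 and was -0.0058 without day 1 library 4, so its sign rests on 1 library, and without control library 5 the day 5 median was -0.0387. Without further scaling of the TPM, the medians were -0.0708 and -0.102. For scale, the SD of the members' mean level over control libraries was 0.0545 log2 units. At day 1, 0 members lay above and 4 lay below every control library, where 4.22% of all genes did not overlap. At day 5, 3 members lay above and 6 below all controls, where the groups did not overlap for 10.8% of genes, and between the days 5 members did not overlap, against 11% of genes.

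The HSP70 genes *Hspa1a* and *Hspa1b*, the classic stress-inducible members, varied most among the protein-coding members. They lie on chromosome 17 (GRCm39, minus strand, 35188166 to 35191132 and 35175412 to 35178214, by the GENCODE annotation), and their transcripts were 99.1% identical over 2200 aligned bases, so reads could be split between them. The *Hspa1b* level was 29.8, 47.5, 61.9, 28.9 and 131 TPM in control libraries 1 to 5, 14.0, 12.1, 190 and 7.89 TPM in day 1 libraries 1 to 4, and 16.5, 29.2, 14.7 and 54.6 TPM in day 5 libraries 1 to 4. Day 1 library 3 stood above all other libraries, while the other 3 day 1 libraries stood below every control. *Hspa1a* was at 17.5, 41.7, 26.9, 24.8 and 90.4 TPM in control libraries, 10.3, 10.4, 68.9 and 5.86 TPM at day 1, and 14.3, 23.5, 8.73 and 25.2 TPM at day 5. Control library 5 was its highest and day 1 library 3 its second highest. Summing the pair, which removes the split, gave 47.4 to 222 TPM in control libraries, 24.2, 22.5, 259 and 13.8 TPM at day 1, and 23.4 to 79.8 TPM at day 5. The log2 fold change of the sum against controls was -1.12 (SE 0.73, limma adjusted p = 0.546) at day 1. At day 5 it was -0.98 (SE 0.73, adjusted p = 0.508), and neither difference passed the adjusted p-value.

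The windows just upstream of *Hspa1a*, *Hspa1b* and *Hspb1* are shown because these members varied most between libraries and carry letters of the heat shock element, the sequence that HSF1 binds as inverted repeats of nGAAn units. Each run holds the 130 bases before the annotated start, read 5′ to 3′ on the gene's strand from GRCm39 at chr17:35191133-35191262 (minus), chr17:35178215-35178344 (minus) and chr5:135916630-135916759 (plus), and lies outside annotated exons. Capitals mark matches to the dimer letters GAANNTTC or TTCNNGAA, each of which reads the same on both strands.
*Hspa1a*: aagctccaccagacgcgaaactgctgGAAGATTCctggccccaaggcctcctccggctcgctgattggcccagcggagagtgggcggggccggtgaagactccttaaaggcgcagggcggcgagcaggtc
*Hspa1b*: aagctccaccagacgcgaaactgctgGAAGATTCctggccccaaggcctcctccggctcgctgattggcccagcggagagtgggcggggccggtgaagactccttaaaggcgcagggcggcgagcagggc
*Hspb1*: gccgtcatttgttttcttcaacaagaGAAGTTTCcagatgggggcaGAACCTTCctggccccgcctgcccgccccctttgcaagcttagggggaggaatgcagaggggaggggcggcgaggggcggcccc
The first 2 windows differed at 1 of 130 bases, and their match began 104 bases before the start. *Hspb1* held 2 matches, the nearer beginning 84 bases before the start.

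**Figure D1:**
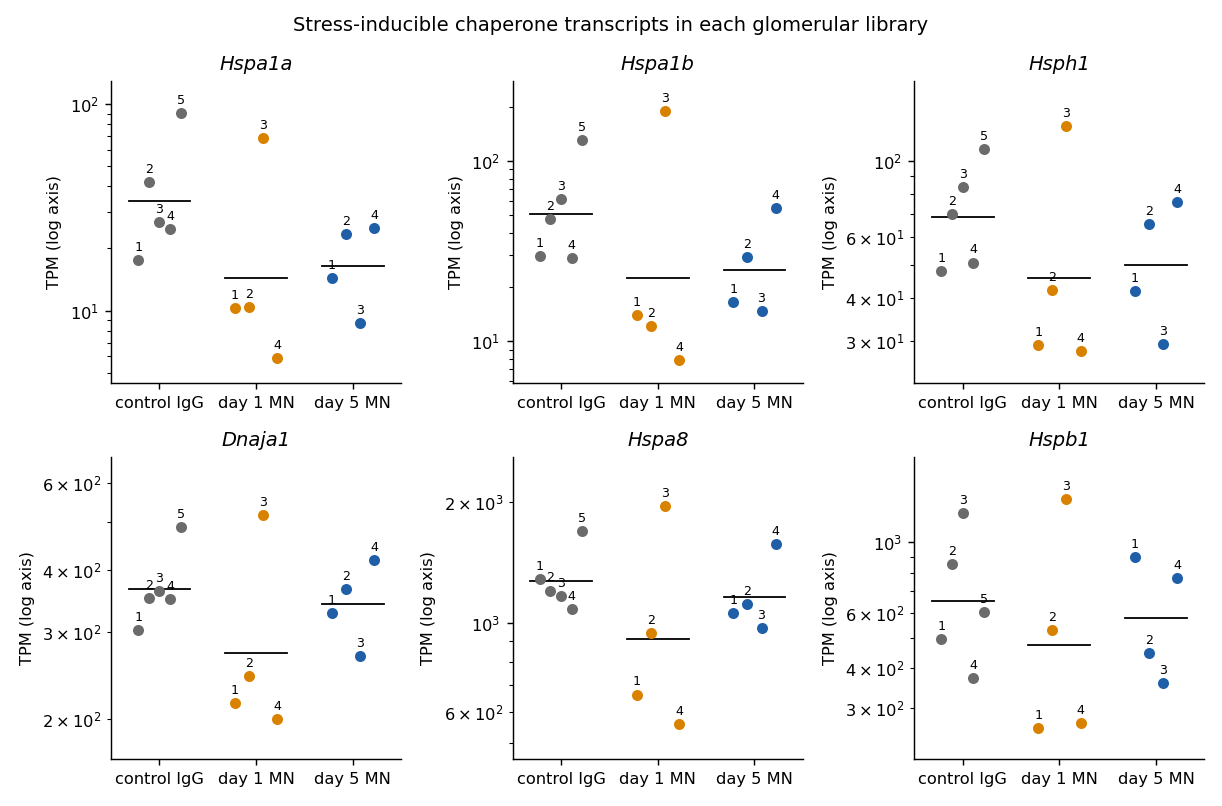
TPM on a log axis of 6 members in each library, grouped by control IgG, day 1 MN and day 5 MN, with the replicate number at each point and a line at the geometric mean of the group. Day 1 library 3 is the highest of its group in all 6 panels, and control library 5 is the highest control in all panels except *Hspb1*.

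Some other members, inducible and constitutive, followed the same libraries. *Hsph1*, which encodes the HSP110 nucleotide exchange factor, was at 47.9, 70.0, 84.0, 50.7 and 108 TPM in control libraries, 29.2, 42.3, 126 and 28.1 TPM at day 1, and 42.1, 65.6, 29.5 and 75.9 TPM at day 5. Day 1 library 3 was the highest of all 13, at 2.98-fold the next day 1 library. *Dnaja1*, a J-domain partner of cytosolic HSP70, was at 302, 351, 362, 350 and 489 TPM in control libraries, 215, 245, 517 and 200 TPM at day 1, and 327, 367, 268 and 419 TPM at day 5. Again day 1 library 3 and control library 5 were the highest, and the other 3 day 1 libraries lay below all controls. *Hspa8*, the constitutive cytosolic HSP70 and the most abundant member, was at 1288, 1203, 1168, 1081 and 1689 TPM in control libraries, 662, 942, 1950 and 560 TPM at day 1, and 1059, 1116, 969 and 1575 TPM at day 5. The same 2 libraries were its highest. *Hspb1* was at 496, 856, 1238, 373 and 603 TPM in control libraries, 258, 527, 1374 and 269 TPM at day 1, and 901, 447, 358 and 773 TPM at day 5. Its highest control was library 3, and day 1 library 3 was again the highest of all. For these 4 genes the fold changes against control had adjusted p-values of 0.541 or more at day 1 and 0.649 or more at day 5.

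The pattern was measured on a list of 24 HSF1 target genes written for this comparison, of which 14 were members. In day 1 library 3 all 14 lay above the mean of the other day 1 libraries, by a median of 1.01 log2 units, and 13 of 14 were the highest of the group, where 26.3% of all tested genes were highest in that library. In control library 5, 12 of 14 lay above the mean of the other controls, by a median of 0.49, and 9 were the highest (23.8% of all genes). Day 5 library 4 had 12 of 14 above, by a median of 0.43, with 9 the highest (21% of all genes). The lowest medians against the rest of the group were -0.56 in day 5 library 3, -0.52 in day 1 library 1 and -0.38 in day 1 library 4. In each of these libraries 0 of the 14 lay above the mean of the others. For day 1 libraries 1 and 4 those others include library 3. Medians of different groups are thus not on the same scale. The 59 members outside the list had medians between -0.05 and 0.03 in each of the 13 libraries. The summed TPM of the 14 ranked day 1 library 3 first (4843), then control libraries 5 (3737) and 3 (3489) and day 5 library 4 (3440), and ended with day 1 library 4 (1522). Each group thus held a library among the 4 highest.

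The 10 list genes that are no members showed the same library. *Hsp90aa1*, the inducible cytosolic HSP90, was at 438 TPM in day 1 library 3 and at 146, 210 and 182 TPM in the other day 1 libraries, with controls from 219 to 363 TPM. *Hsp90ab1*, its constitutive partner, was at 2202 TPM there against 813 to 1011 TPM in the others. In all, 9 of the 10 were highest of the 13 libraries in day 1 library 3, against 5.89% of all tested genes. The transcript of HSF1 itself, which is regulated mainly after translation, varied little, from 41.7 to 53.5 TPM.

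**Figure D2:**
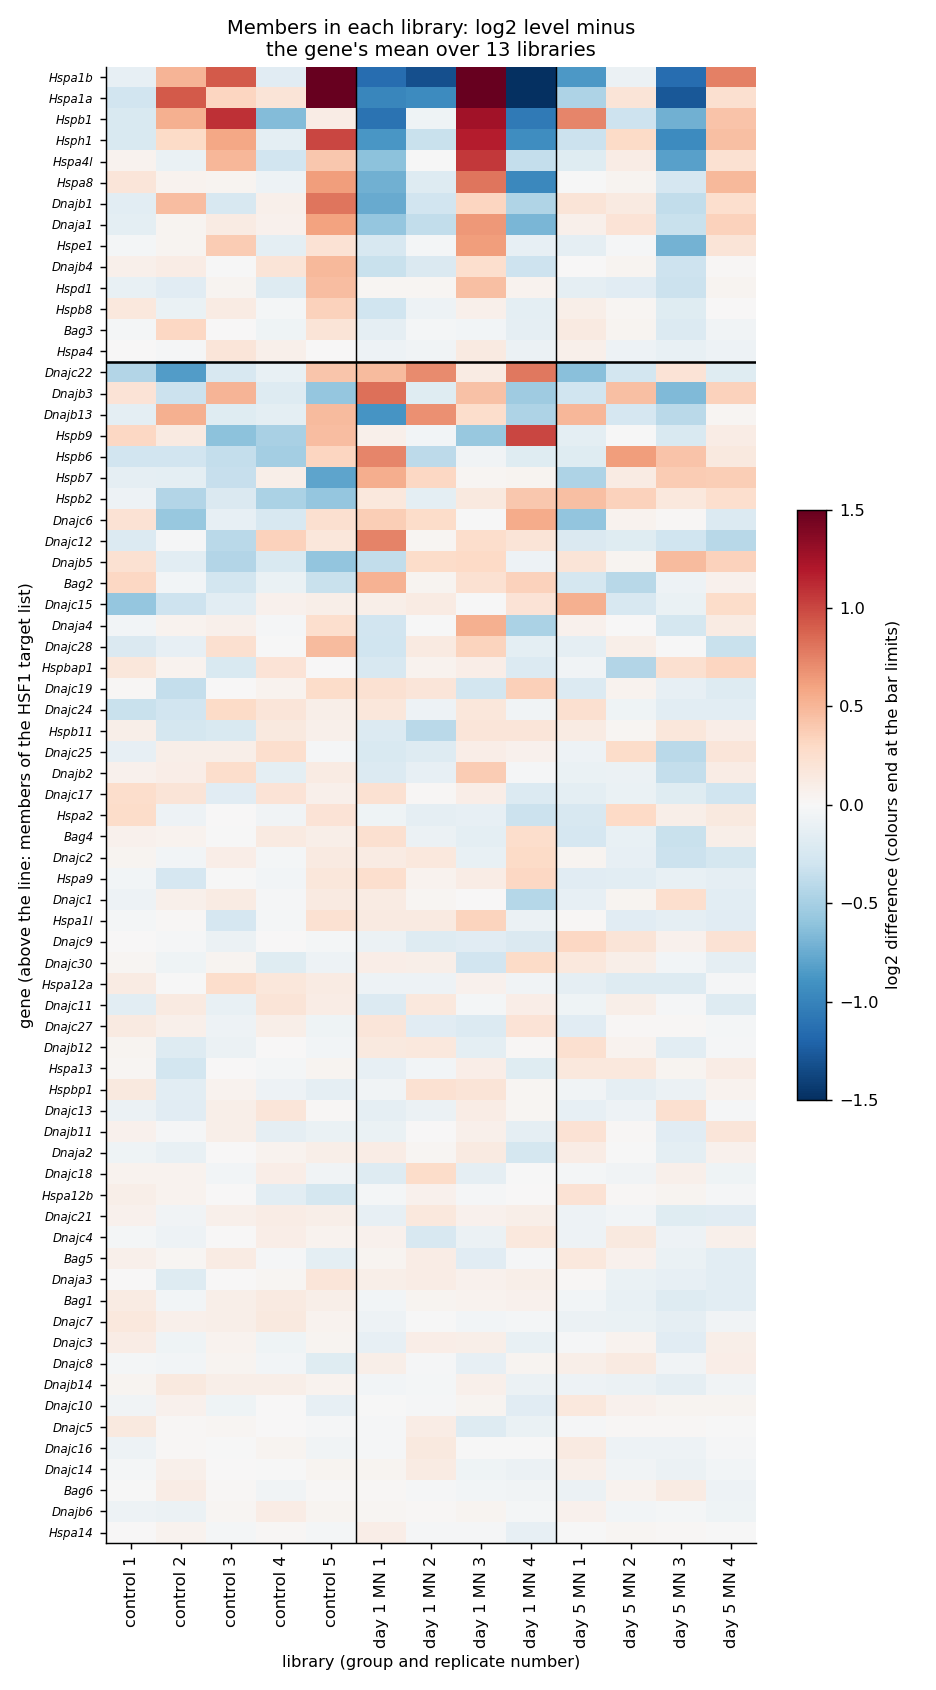
Each row is 1 of 70 tested members, copies of *Hspe1* left out, and each column 1 of 13 libraries, with colour giving the log2 scaled level minus the gene's mean over all libraries (red higher, blue lower). The 14 rows above the line, members of the HSF1 target list, are mostly red in day 1 library 3 and control library 5 and mostly blue in day 1 libraries 1 and 4 and day 5 library 3, while most rows below the line are pale in every column.

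Other values of these libraries were compared. The 12 immediate-early genes examined, which are induced within minutes by many stimuli and include *Fos*, *Jun* and *Egr1*, summed to 1038 TPM in day 1 library 3 and to 1026 to 1095 TPM in the other day 1 libraries, and to 927 TPM in control library 5 within a control range of 891 to 997 TPM. Of these genes, *Egr1* and *Fosb* were themselves called at day 1. Proximal tubule markers were lowest at day 1 in library 3 (3825 TPM) and highest among controls in library 5 (8008 TPM). The part of either measure in the heat shock values was not tested.

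The fits were repeated without these libraries, a choice made after seeing the data and on the level of these very genes. Leaving out the day 1 library in which they were highest lowers their day 1 level by construction, so the values show only how far the fits rest on these libraries. Without day 1 library 3, the median of the 14 HSF1-list members at day 1 was -0.57, and the lowest adjusted p was 0.108 (limma, for *Hspa1b* and *Dnajb4*). Without both day 1 library 3 and control library 5, 4 of 72 members were called at day 1, where 2.88% of all tested genes were. These were *Hspa1a* (-1.50, adjusted p = 0.0466), *Hspa1b* (-1.74, adjusted p = 0.0405), *Dnaja1* (-0.56, adjusted p = 0.0466) and *Dnajc22* (1.07, adjusted p = 0.0162). *Dnajb4*, a cytosolic J-domain protein, passed the adjusted p alone (-0.38, adjusted p = 0.0425). In that fit 4.44% of all genes passed the adjusted p at day 1, against 0.133% with all libraries. With all libraries the same 14 members had a median of -0.35 at day 1, with 13 negative, and -0.15 at day 5, with 14 negative.

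The spread between libraries of a group is given as a description, since the list was written with these data known. The residual SD within groups, on the log2 scale, had a median of 0.41 over the 14 HSF1-list members and 0.15 over the other 59, beside 0.17 for all tested genes. *Hspa1b* (1.34), *Hspa1a* (1.08), *Hspb1* (0.83) and *Hsph1* (0.72) were each above the 95th percentile of all tested genes. The list was not uniform, since *Hspa4* (0.09), *Bag3* (0.13) and *Hspb8* (0.15) varied little. Outside it, *Dnajb3* (0.52), *Dnajb13* (0.50) and *Hspb9* (0.48), which are low in glomeruli, exceeded the median of the list. At the low end, *Dnajc7* (0.04), *Dnajb14* (0.05) and *Hspa14* (0.06) were among the steadiest genes in the data, at or below percentile 1.47.

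Upstream sequence was described for all members with an annotated start. Within the 250 bases before the start of 70 members, dimer letters (GAANNTTC or TTCNNGAA) were found in 11, or 15.7%, compared with 10.8% of 13166 tested genes and 12.3% of 21729 protein-coding genes. Of the 11, 7 were on the HSF1 list (*Hspa1a*, *Hspa1b*, *Hsph1*, *Dnaja1*, *Hspb1*, *Hspd1* and *Hspe1*) and 4 were not (*Dnajc6*, *Dnajc10*, *Dnajc27* and *Dnajc30*). The trimer letters GAANNTTCNNGAA or TTCNNGAANNTTC, which contain the dimer letters and are each other's reverse complement, were found in 2 members (2.86%, against 0.38% of tested genes), *Hspd1* and *Hspe1*, a head-to-head pair that shares its upstream region. The median residual SD was 0.33 for the 11 members with the letters and 0.15 for the 59 without. Since 7 of the 11 are on the list, this largely repeats the contrast by list. Outside the list, the values with letters were 0.30 (*Dnajc6*), 0.07 (*Dnajc10*), 0.14 (*Dnajc27*) and 0.16 (*Dnajc30*). List members without letters ran from 0.09 (*Hspa4*) to 0.49 (*Hspa8*) and 0.52 (*Hspa4l*). The part of the letters in the spread was not tested. A match is a stretch of letters and not a measured binding site, and the absence of these letters in 250 bases says nothing of more distant elements.

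**Figure D3:**
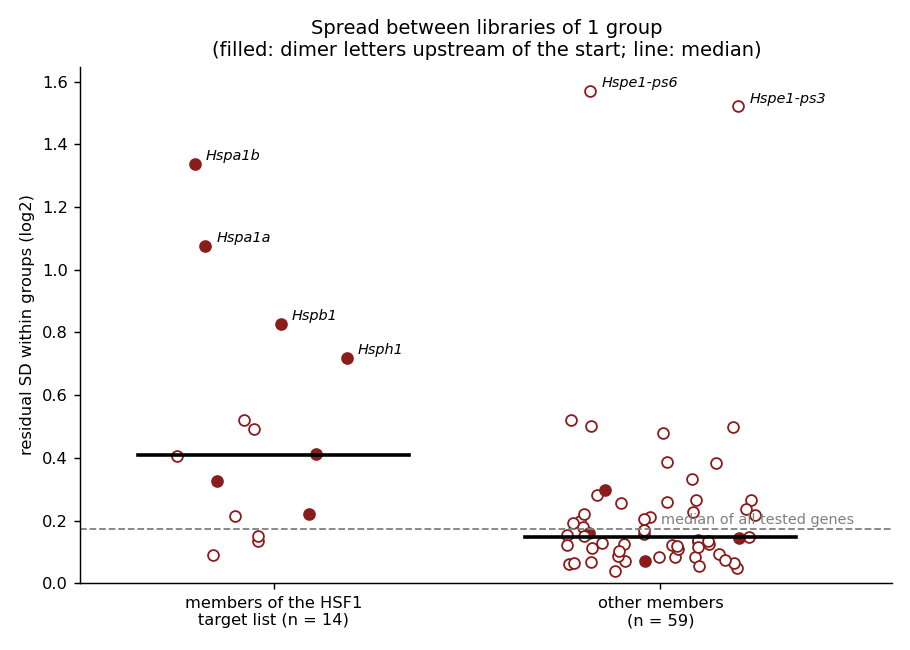
Each point is 1 member, placed by its residual SD within groups on the log2 scale, for the 14 members of the HSF1 target list and the 59 other members, with black lines at the medians (0.41 and 0.15) and a dashed line at the median of all tested genes (0.17). Filled points have dimer letters in the 250 bases upstream, open points have none or no window, and the 4 highest points on the left are *Hspa1b*, *Hspa1a*, *Hspb1* and *Hsph1*.

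At day 5, 5 members outside the HSF1 list differed from control, all by less than 1 log2 unit. *Hspb2*, a small heat shock protein best known from muscle, was at 12.0, 9.41, 10.9, 9.01 and 7.97 TPM in control libraries, 13.6, 10.9, 13.8 and 16.4 TPM at day 1, and 16.3, 15.5, 14.4 and 15.0 TPM at day 5. All 4 day 5 libraries lay above all controls, while day 1 library 2 overlapped them. It rose by a log2 fold change of 0.66 (SE 0.13, limma adjusted p = 0.00709) at day 5, and was at 0.50 (SE 0.13, adjusted p = 0.178) at day 1. The exons of *Hspb2* (chromosome 9, 50662378 to 50663858, minus strand) overlap those of *Cryab*, which encodes the small heat shock protein αB-crystallin, on the other strand. *Cryab* was far more abundant, at 174 to 269 TPM in control libraries and 230 to 335 TPM at day 5 (0.32, SE 0.15, adjusted p = 0.248). Whether counting used strand is not given in the sources used here, so reads of the pair may not be told apart.

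*Dnajc9*, a J-domain protein that also binds histones H3 and H4, was at 29.9 to 32.2 TPM in control libraries, 28.8, 26.5, 28.0 and 26.5 TPM at day 1, and 37.0, 35.0, 33.9 and 36.8 TPM at day 5. The 3 groups did not overlap: day 1 lay lowest, controls between and day 5 highest. It was 0.22 higher at day 5 than in controls (log2, SE 0.06, adjusted p = 0.0383), -0.14 at day 1 (SE 0.06, adjusted p = 0.352), and 0.36 higher at day 5 than at day 1 (SE 0.06, adjusted p = 0.0049).

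The other 3 members were lower at day 5. *Dnajc7*, a co-chaperone with tetratricopeptide repeats that binds HSP70 and HSP90, was at 156 to 175 TPM in control libraries, 143, 149, 150 and 148 TPM at day 1 and 137, 139, 145 and 150 TPM at day 5. Every MN library lay below every control. Its log2 fold change was -0.20 (SE 0.04, adjusted p = 0.00899) at day 5 and -0.14 (SE 0.04, adjusted p = 0.225) at day 1. *Hspa12a*, a distant HSP70 relative, was at 118 to 140 TPM in control libraries, 105 to 120 TPM at day 1 and 99.4, 97.1, 104 and 114 TPM at day 5, with a fold change of -0.27 (SE 0.06, adjusted p = 0.0173) at day 5. *Bag1*, a nucleotide exchange factor of HSP70, was at 195, 178, 191, 197 and 183 TPM in control libraries, 168, 174, 183 and 181 TPM at day 1 and 163, 158, 159 and 159 TPM at day 5, with a fold change of -0.21 (SE 0.05, adjusted p = 0.0253). For both genes the day 5 libraries lay below all controls and the day 1 libraries overlapped them. These 3 changes were under the fold required for a call. Exons of all 3, as of 48 of the 72 members with an annotated locus, overlap a gene on the other strand.

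**Figure D4:**
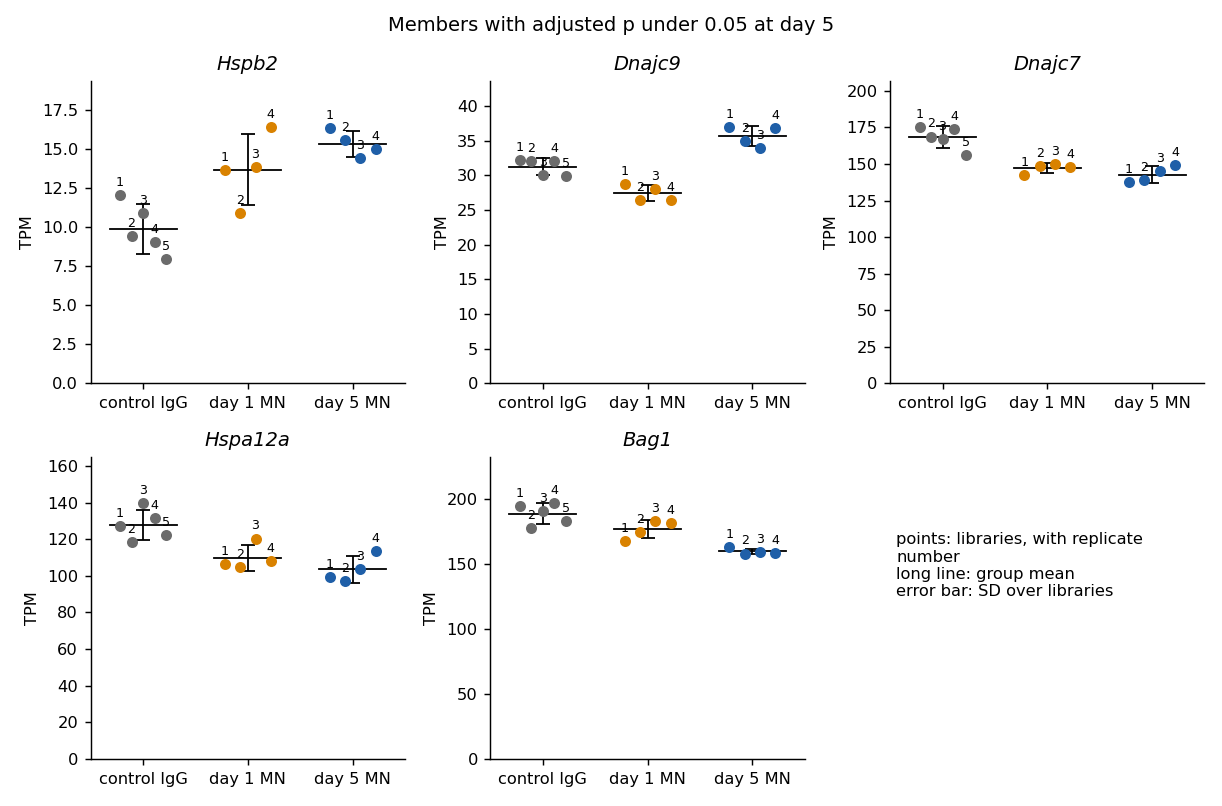
TPM in each library, on axes that start at 0, of the 5 members with an adjusted p under 0.05 at day 5, with replicate numbers, group means and SD. *Hspb2* and *Dnajc9* are highest and *Dnajc7*, *Hspa12a* and *Bag1* lowest at day 5, and in each panel the day 5 points are clear of the control points.

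Leaving out a library in turn moved some of these p-values across 0.05. *Hspb2* and *Dnajc7* stayed under it in all 13 fits at day 5 (0.03 and 0.0365 at most), and so did *Dnajc9* between the days (0.0225 at most). *Hspa12a* passed in 11 of 13, with 0.0703 without day 5 library 2 and 0.0549 without day 5 library 3. *Bag1* passed in 7 of 13, with 0.0586 to 0.0757 without control library 1, 3 or 4 or day 5 library 2, 3 or 4. *Dnajc9* at day 5 passed in 4 of 13 and had its highest value, 0.122, without day 5 library 1. It missed without each control library, without day 1 library 2 and without day 5 libraries 2 and 4 as well.

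Of the 13 HSP70 and HSP110 genes, inducible and constitutive together, 0 were called at either day, with medians of -0.09 at day 1 and -0.10 at day 5. Constitutive *Hspa8* had a fold change of -0.44 at day 1 (SE 0.29, adjusted p = 0.56). *Hspa2*, an HSP70 best known from male germ cells, was at 6.29 to 8.01 TPM in controls and at 4.93 to 5.99 TPM at day 1, below all controls (-0.23, SE 0.12, adjusted p = 0.454), and overlapped them at day 5. *Hspa9*, the mitochondrial HSP70 mortalin, was at 117, 102, 119, 117 and 130 TPM in control libraries, 137, 118, 127 and 143 TPM at day 1 and 99.8, 102, 113 and 108 TPM at day 5. All day 5 libraries lay below all day 1 libraries, a difference of -0.32 (SE 0.08, adjusted p = 0.0541). *Hspa13*, a microsomal HSP70 relative, was at 27.1 to 27.6 TPM in all 4 day 5 libraries and at 21.7 to 26.4 TPM in controls (0.16, adjusted p = 0.272). *Hspa14*, part of the ribosome-associated complex, was at 43.7 to 52.1 TPM over all 13 libraries.

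Among 7 small heat shock genes, 0 were called at day 1 and 1 at day 5, with medians of 0.16 and 0.14. *Hspb1* (713 ± 343 TPM, SD, n = 5), *Hspb8* (138 ± 13.8) and *Hspb11* (20.3 ± 2.56), the last a subunit of ciliary transport with no locus under this symbol in the annotation used, had the highest control levels. *Hspb8*, which works with BAG3 in clearing damaged filament proteins, was at 122 to 156 TPM in control libraries, 100 to 133 TPM at day 1 and 116 to 128 TPM at day 5 (-0.21 at day 1, adjusted p = 0.392). *Hspb6* and *Hspb7*, small heat shock genes of muscle, had fold changes of 0.25 and 0.50 at day 1 and 0.48 and 0.37 at day 5, with adjusted p-values of 0.285 or more. With *Hspb2* these are muscle-type genes, and mesangial markers, which include the contractile genes *Acta2*, *Tagln* and *Myh11*, summed to 1310 to 2068 TPM in controls, 1705 to 1986 at day 1 and 1939 to 2566 at day 5. At day 5, 7 of the 8 mesangial markers had positive fold changes and 1 was called, and the part of these cells in the *Hspb2* value was not tested.

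Mitochondrial and cytosolic chaperonins showed no called change. *Hspd1* was at 114 to 173 TPM in control libraries, 128, 126, 176 and 131 TPM at day 1 and 106 to 132 TPM at day 5. *Hspe1* was at 37.4 to 54.0 TPM in controls, 33.7 to 63.3 TPM at day 1 and 25.6 to 46.8 TPM at day 5. Day 1 library 3 held the highest value of each. The 14 genes of the cytosolic chaperonin and prefoldin had medians of 0.01 at each day, with 0 called, and no adjusted p under 0.160.

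The 4 *Dnaja* genes, whose products are the general partners of cytosolic and mitochondrial HSP70, gave 0 calls. *Dnaja2* was at 93.7 to 126 TPM over all libraries, and *Dnaja3*, the mitochondrial member, at 36.2 to 39.0 TPM at day 5, below 41.9 to 42.2 TPM at day 1 without overlap (-0.17, adjusted p = 0.266). Of the 10 *Dnajb* genes, 0 were called at either day. *Dnajb1*, the inducible partner of HSP70, was at 30.7 to 61.1 TPM in controls, 20.5, 28.2, 45.0 and 25.5 TPM at day 1 and 28.4 to 42.9 TPM at day 5 (-0.48 at day 1, SE 0.24, adjusted p = 0.427). *Dnajb5* was at 11.9 to 22.3 TPM in controls and 18.6 to 26.9 TPM at day 5 (0.50, SE 0.17, adjusted p = 0.116), and without control library 1 it was called (0.61, adjusted p = 0.0444). *Dnajb6* and *Dnajb2*, which act on aggregation-prone clients, had fold changes of -0.02 and -0.18 at day 5. *Dnajb14*, a J-domain protein of the endoplasmic reticulum membrane, was at 11.4 to 12.2 TPM at day 5, below 12.8 to 14.6 TPM in controls (-0.17, adjusted p = 0.160).

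The 26 *Dnajc* genes, which mostly serve a fixed place or client, had medians of -0.02 at day 1 and -0.04 at day 5. Of the members that work at the ribosome, *Dnajc2* (-0.21, adjusted p = 0.221) and *Dnajc21* (-0.17, adjusted p = 0.170) lay below all controls at day 5. *Dnajc17* and *Dnajc8*, found in spliceosomes, were at -0.30 (adjusted p = 0.117) and 0.12 (adjusted p = 0.285). In the endoplasmic reticulum, *Dnajc10*, a disulfide reductase, was at 121 to 127 TPM at day 5 and 107 to 129 TPM in controls (0.11, adjusted p = 0.275), *Dnajb11* at 119 to 146 and 117 to 140 TPM (0.08, adjusted p = 0.649), and *Dnajc3*, an inhibitor of the kinase PERK, at 92.5 to 107 and 98.6 to 111 TPM. *Dnajc15*, of the mitochondrial inner membrane, was at 8.17 to 14.0 TPM at day 5 and 6.66 to 10.7 TPM in controls (0.30, adjusted p = 0.357). *Dnajc5*, the cysteine string protein of secretory vesicles, stayed between 56.7 and 73.1 TPM in all libraries.

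Of the 6 BAG genes, 1 passed the adjusted p, *Bag1*, and 6 of 6 had negative fold changes at day 5 with a median of -0.10. *Bag3*, which pairs HSP70 with small heat shock proteins and is known to be induced by stress, was at 41.7 to 55.0 TPM in controls, 38.0 to 41.6 TPM at day 1 and 38.1 to 44.6 TPM at day 5. Day 1 library 3, at 41.6 TPM, lay only 1.03-fold above the next library of its group, where *Hspa1b* lay 13.6-fold above. *Bag6*, a triage factor for membrane proteins that miss their target, was at 144 to 181 TPM throughout.

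**Figure D5:**
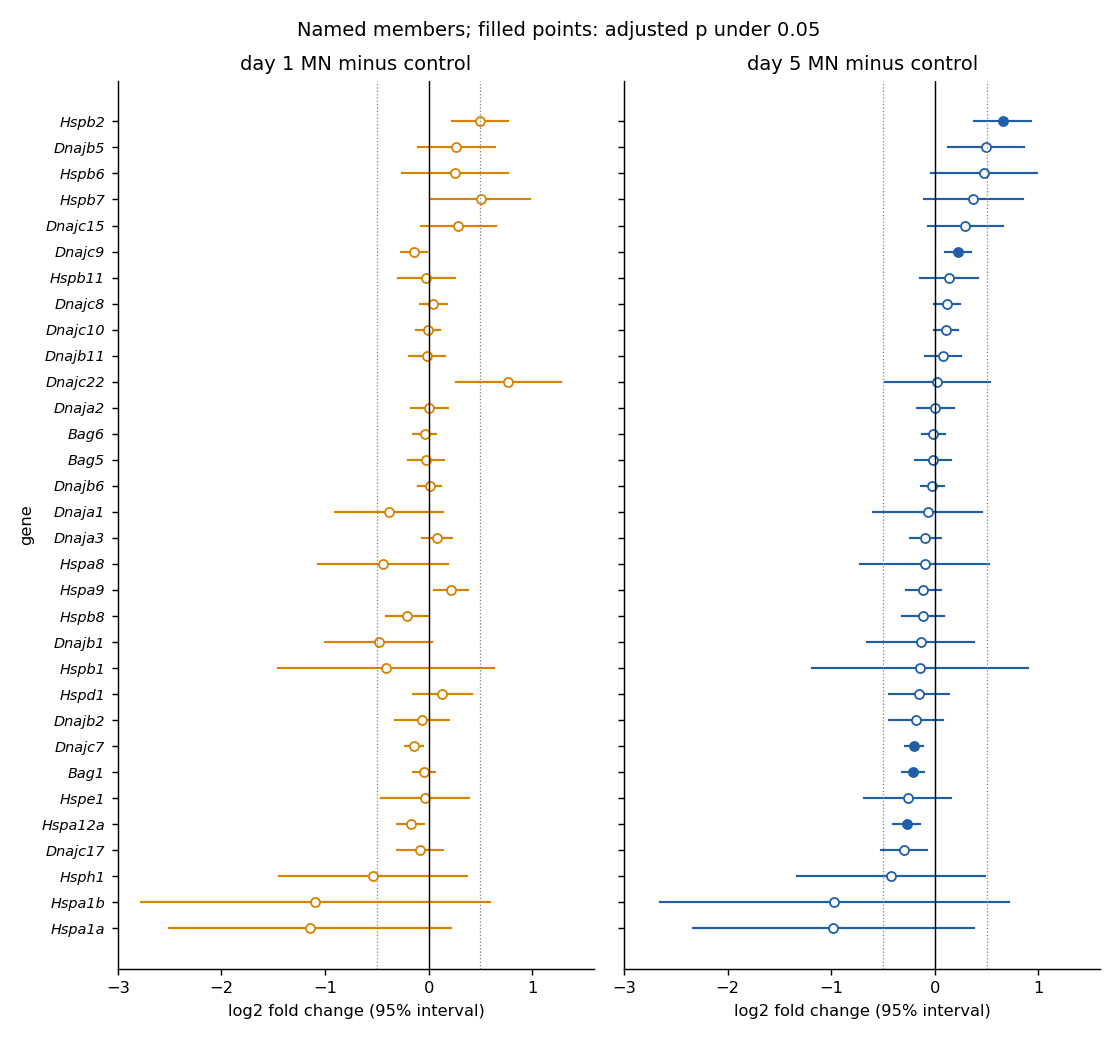
Log2 fold changes of 32 named members against control at day 1 and day 5, with 95% intervals from the limma fit, sorted by the day 5 value, and dotted lines at -0.5 and 0.5. Filled points, of which there are 0 at day 1 and 5 at day 5, have an adjusted p under 0.05. The intervals of *Hspa1a*, *Hspa1b* and *Hspb1* span over 2 log2 units.

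The level of *Dnajc22* was set beside the tubule markers. *Dnajc22*, the counterpart of a fly gene for endocytosis in tubular organs, was at 5.17, 3.84, 5.97, 6.60 and 9.34 TPM in control libraries, 9.80, 11.4, 7.71 and 12.3 TPM at day 1 and 4.17, 5.54, 8.52 and 6.16 TPM at day 5. Control library 5, which had the highest proximal tubule sum, overlapped the day 1 range, and the other controls did not. The highest *Dnajc22* value was in day 1 library 4, with a proximal sum of 5977 TPM, below day 1 libraries 1 (6973) and 2 (7061). Day 5 library 3 (proximal sum of 3420 TPM) was above day 1 library 3 (3825). The 7 tested markers of the loop, distal tubule and collecting duct summed to 413, 258, 387, 524 and 498 TPM in control libraries 1 to 5. At day 1 these markers summed to 637, 609, 499 and 910 TPM in libraries 1 to 4, with the highest sum in library 4. At day 5 the sums were 348, 377, 406 and 478 TPM. The fold change of *Dnajc22* was 0.77 (SE 0.23, adjusted p = 0.249) at day 1, and without control library 5 it was called (0.93, adjusted p = 0.0417). *Dnajc12*, a co-chaperone of aromatic amino acid hydroxylases, was at 17.6, 20.6, 15.3, 26.2 and 22.0 TPM in control libraries, 33.3, 19.7, 24.1 and 22.6 TPM at day 1 and 16.4, 17.1, 16.8 and 15.0 TPM at day 5, with a difference of -0.58 (SE 0.17, adjusted p = 0.0997) between the days. The highest control for *Dnajc12* was library 4, which also had the highest loop, distal tubule and collecting duct sum of the controls (524 TPM). Its lowest day 1 library was library 2, the one with the highest proximal tubule sum at day 1. Day 1 library 4, with the highest loop, distal tubule and collecting duct sum (910 TPM), was at 22.6 TPM for *Dnajc12*. With the proximal tubule marker score as a covariate, the day 1 value of *Dnajc22* was 0.22 (adjusted p = 0.824), and the differences between the days became -0.45 for *Dnajc12* (adjusted p = 0.545) and -0.16 for *Hspa9* (adjusted p = 0.489). *Dnajc9* kept 0.35 between the days in that fit, with an adjusted p of 0.0563. With this covariate 0 of the 14322 tested genes were called at day 1, against 0.0908% without it. Between the days 1.09% were called, against 1.81%. The tubule marker sums differed between the groups, so the fit cannot tell tubule content from the day. The part of tubule cells in these values was not tested. All 8 proximal tubule markers had positive fold changes at day 1 and negative differences between day 5 and day 1, and so did all 7 tested markers of the loop, distal tubule and collecting duct.

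Not all members were measurable. Of the 18 members not tested, 13 were pseudogenes or retrogenes, and 9 members were listed at 0 in every library. The pseudogenes *Hspe1-ps3* and *Hspe1-ps6* passed the filter. Their transcripts were 88.9% and 88.4% identical to the *Hspe1* transcript over the aligned bases, so their values are uncertain. *Hspe1-ps3* was listed at 0 in 6 libraries and reached 8.17 TPM in day 5 library 1, and *Hspe1-ps6* was listed at 0 in 7 and reached 6.30 TPM in control library 4. The members closest to the filter were *Hspb9*, with at least 1 TPM in 4 libraries, and *Dnajb3*, in 5, on the inside, and *Hspe1-ps2*, in 2, on the outside. *Dnajb7* and *Dnajb8*, genes of germ cells, *Hspb3* and *Dnajc5b* reached at most 0.373 TPM in any library.

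The partners of these genes outside the naming pattern gave the same picture of few changes. Of 4 HSP90 genes, 0 passed the adjusted p at either day, with medians of -0.12 and -0.15. Mitochondrial *Trap1* was lower at day 5 than at day 1 without overlap (-0.24, SE 0.06, adjusted p = 0.0636). Of 22 co-chaperones and exchange factors of HSP70 and HSP90, among them *Stip1*, *Chordc1* and *Ahsa1*, 0 passed, with medians of -0.10 and -0.07. Of 4 measured heat shock factor genes and of 8 endoplasmic reticulum partners, which include *Hspa5* (BiP) and *Dnajb9*, 0 passed at either day. In contrast, of the 12 immediate-early genes, 2 were called at day 1, *Egr1* (0.94, adjusted p = 0.0271) and *Fosb* (1.37, adjusted p = 0.0395), and at day 5 *Egr1* (0.65, adjusted p = 0.0162) and *Junb* (0.51, adjusted p = 0.0175) were called.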

How the data were processed

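Glomerular RNA of 13 libraries was sequenced. Per the labels, the submitters' processing notes name FastQC 0.11.9, Trimmomatic 0.39, kallisto 0.46.2 and GRCm39. The authors deposited TPM per gene symbol, which hold no depth, and tested counts with DESeq2 (not used here). Library strandedness was not given in the sources used here.

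Here each library was rescaled by a median-of-ratios factor (0.954 to 1.04) computed on the 15772 genes that were never 0, and values were log2-transformed with a pseudocount of 0.5. The 14322 genes reaching 1 TPM in 4 or more libraries entered 1 fit of 3 groups with limma 3.58.1 in R 4.3.3, with a mean-variance trend and Benjamini-Hochberg adjustment within each comparison. Fold changes understate changes of low genes. The procedure was tested on simulated data.

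The members and lists were chosen with earlier results of these data known. Named genes were members with adjusted p under 0.05, the 10 largest changes at each day, the 3 highest of each family in controls and those nearest the filter, 35 in all, and others are named where a count or contrast refers to them, chosen after their values were seen. Loci and upstream windows came from GENCODE on GRCm39 (72 of 73 members matched by symbol), identities from BLAST+ 2.17.0, and plots from matplotlib 3.10.9 in Python 3.11.15. Alternatives are given in the closing section. Some items are not reported here.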

Additional observations from a re-analysis of the deposited data

Results flagged for a closer look

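In day 1 library 3, 8 named members lay far from the other 3 libraries of the group by Dixon's test. *Hspa1b* was at 190 TPM (others 7.89 to 14.0), *Hspa1a* at 68.9 TPM (5.86 to 10.4), *Hsph1* at 126 TPM (28.1 to 42.3), *Dnaja1* at 517 TPM (200 to 245), *Hspd1* at 176 TPM (126 to 131) and *Hspe1* at 63.3 TPM (33.7 to 38.5). *Hspe1-ps3* at 1.52 TPM and *Hspe1-ps6* at 1.44 TPM were listed at 0 in the other 3. The last 2 are similar copies of parts of *Hspe1*, and their values are uncertain. In the control group, *Hspb6* in library 5 was at 7.75 TPM, where the other 4 were at 4.37 to 5.22 TPM. In all, 9 of 105 groups examined (35 members in 3 groups) held such a library, and chance flags about 1 in 20 independent groups. The count cannot be read against that rate, since the members were named partly for large changes in these data and 8 of the 9 lie in 1 library.

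*Dnajc9* differed between the effects at the 2 days, being 0.36 higher at day 5 than at day 1 (log2, limma adjusted p = 0.0049, higher in 4 of 4 day 5 libraries than in any day 1 library).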

How the results depend on the processing

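The medians of the members' fold changes moved by less than the spread between control libraries (0.0545) in every alternative run, yet they are small enough to turn. Over left-out libraries the median ran from -0.0412 to 0.003 at day 1 (positive without day 1 library 1), from -0.0749 to -0.0387 at day 5 and from -0.0416 to 0.0202 between the days. With the adjusted p alone, 5 members were called at day 5 (6.12% of all genes) and 1 between the days (2.38%). Leaving out each library in turn gave 0 to 1 members called at day 1 (1, *Dnajc22*, without control library 5), 1 to 2 at day 5 (2 without control library 1) and 0 between the days. Of all genes, 1.53% were called at day 1 without control library 5, and 2.92% at day 5 without control library 1. Without control library 5 and day 1 library 3 together, chosen after seeing the data, 4 members were called at day 1 and 2 between the days (*Dnaja1* and *Dnajc22*). In that fit 2.88% of all genes were called at day 1 and 3.66% between the days. Of the named members, 4 turned sign, none past the threshold. *Hspa8* at day 5 turned positive with the replicate block (0.0191) and without both libraries (0.0184), and when 1 library was left out it ranged from -0.236 to 0.0186. *Dnaja1* at day 5 turned positive with the block (0.0512), with array weights (0.0304) and without both libraries (0.0505), and ranged from -0.157 to 0.0717 over left-out libraries. *Hspb1* at day 5 ranged from -0.372 to 0.113. *Hspe1-ps3* at day 1 was 0.61 with the tubule score as a covariate. The cause was not tested. Among members passing the adjusted p at day 5, *Bag1* missed without the variance trend (0.0506), with the block (0.0959) and without both libraries (0.0575), and *Dnajc9* missed unscaled (0.0664), with only the compared groups (0.0644), with the block (0.0846) and without both libraries (0.0842). With the replicate number as a block, 0, 1 and 0 members were called at day 1, at day 5 and between the days. Of all genes, 1.04%, 2.43% and 2.31% were called. The number of members passing the adjusted p was 0, 3 and 2. The numbers did not pair the libraries, since correlations of same-numbered deviations ran from -0.06 to 0.09 over 12 pairs. TPM without further scaling shifted the median of all genes by -0.05 at day 1 and -0.04 at day 5.

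TPM hold no depth, so precision rests on 4 or 5 libraries per group. With these numbers, the intervals of *Hspa1a*, *Hspa1b* and *Hspb1* allow changes of over 1 log2 unit in the direction of the fold change, and a value that missed the threshold is not shown to be unchanged.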
